A study of Mus musculus with 12 samples.

Results

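The 31 genes described here are type I interferon-stimulated genes of the mouse, together with the interferon gene Ifnb1, chosen by name from the 55604 genes counted in each library. They were followed in bone marrow-derived macrophages of C57BL/6 mice, grown from marrow in medium with 20 ng/ml M-CSF and taken at day 7. In the first group the macrophages were given corpses of B16-F10 melanoma cells that overexpressed STC1 (STC1OE corpses), in the second control B16-F10 corpses, and in the third no corpses (macrophages alone). Corpses were added at 5 per macrophage for 20 hours, and those not bound were washed off before RNA extraction. B16-F10 is a mouse melanoma line, and STC1 is stanniocalcin-1, a secreted glycoprotein that also acts inside cells. Each group had 4 mRNA libraries from what the study calls independent experiments. The sources used here do not say whether these used separate mice, so p-values measure the spread between these libraries. All 3 groups shared the strain, the growth factor and the time in culture, and the sources used here do not name a clone of the overexpressing line or how the cells were killed.

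Type I interferons bind the receptor made of Ifnar1 and Ifnar2, whose kinases Jak1 and Tyk2 phosphorylate STAT proteins, Stat2 among them. With Irf9 these form the factor ISGF3, which binds interferon-stimulated response elements before the genes it switches on. Macrophages are known to keep a low tonic level of this program, to raise it when nucleic acid sensors are engaged, and to be able to make interferon beta themselves.

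The promoters of these genes are shown first because the response element is the sequence that ISGF3 reads. RefSeq (GRCm38.p6) gave a window of 300 bases, 250 before and 50 after the start, for 22 of the 31 genes. The core GAAANNGAAA was searched on both strands, with overlapping matches kept. It lay in 11 of the 22 genes (50%), and in 1079 of the 27025 mouse genes with such a window (3.99%). A match describes the letters and is not a measured site. The 250 bases before the start follow for a gene with 3 overlapping cores (Isg15), one with 2 (Bst2), one with 1 (Rsad2) and one with none (Cmpk2), each 5′ to 3′ on the strand of its gene with the cores in capitals. Isg15 lies on the minus strand at chr4:156200819-156201068, Bst2 on the minus strand at chr8:71537473-71537722, Rsad2 on the minus strand at chr12:26456453-26456702 and Cmpk2 on the plus strand at chr12:26468965-26469214.
Isg15: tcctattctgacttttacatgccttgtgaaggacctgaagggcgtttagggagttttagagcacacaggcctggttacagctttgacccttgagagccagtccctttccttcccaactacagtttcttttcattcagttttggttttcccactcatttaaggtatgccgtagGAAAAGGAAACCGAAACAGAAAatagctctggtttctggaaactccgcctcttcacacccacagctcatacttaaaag
Bst2: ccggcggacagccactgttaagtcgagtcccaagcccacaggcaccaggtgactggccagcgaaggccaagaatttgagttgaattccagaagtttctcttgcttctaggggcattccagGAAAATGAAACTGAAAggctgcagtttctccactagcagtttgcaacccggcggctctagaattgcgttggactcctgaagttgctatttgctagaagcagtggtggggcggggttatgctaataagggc
Rsad2: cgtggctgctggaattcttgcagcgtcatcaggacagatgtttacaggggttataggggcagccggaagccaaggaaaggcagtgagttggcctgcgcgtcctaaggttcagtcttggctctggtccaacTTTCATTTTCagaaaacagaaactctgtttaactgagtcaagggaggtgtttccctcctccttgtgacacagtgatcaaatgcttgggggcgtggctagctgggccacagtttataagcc
Cmpk2: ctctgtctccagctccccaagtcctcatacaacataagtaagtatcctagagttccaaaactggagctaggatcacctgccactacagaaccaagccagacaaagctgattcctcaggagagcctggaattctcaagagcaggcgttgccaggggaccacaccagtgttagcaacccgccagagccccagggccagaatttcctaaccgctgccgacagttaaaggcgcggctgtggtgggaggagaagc
In Rsad2 the core reads on the opposite strand, so its letters are the reverse complement. Rsad2 and Cmpk2 are neighbours in opposite orientation, with 12751 bases between them, and their levels are set side by side below. The core was also found in the windows of Ddx58, Ifih1, Ifit1, Ifit3, Oas1a, Oas3, Stat2 and Trim30a, and not in those of Ifi35, Ifi44, Ifit2, Ifnb1, Irf7, Irf9, Isg20, Oasl1, Oasl2 and Xaf1.

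Each library held 28488441 to 39981074 counts assigned to genes. The 9 macrophage markers summed to 13179 to 14297 CPM (counts scaled to the library's size) with STC1OE corpses, 13293 to 14963 CPM with control corpses and 15664 to 16534 CPM in macrophages alone. Most of each sum was Lyz2, at a mean of 8683 CPM with STC1OE corpses, 9157 CPM with control corpses and 11192 CPM in macrophages alone. The markers did not move together: Cd68, Mertk and Fcgr1 were higher with each kind of corpse and the other 6 lower. Melanocyte markers other than Mitf, which macrophages also express, summed to 3.31 to 4.73 CPM with STC1OE corpses, 9.92 to 13.2 CPM with control corpses and 0.234 to 0.593 CPM in macrophages alone. Their part in the results below was not tested, and since corpse and macrophage are both of mouse, their RNA cannot be told apart for a given gene. The 7 markers of plasmacytoid dendritic cells, a main source of interferon alpha, summed to 1.27 to 2.02 CPM with STC1OE corpses, 1.54 to 1.87 CPM with control corpses and 1.62 to 2.25 CPM in macrophages alone. Only 2 of the 7 had enough counts to be tested. Neutrophil markers summed to 4.01 to 4.91 CPM with STC1OE corpses, 3.58 to 5.01 CPM with control corpses and 14.1 to 15.9 CPM in macrophages alone. B cell markers summed to 4.35 to 4.74 CPM with STC1OE corpses, 4.595 to 5.32 CPM with control corpses and 14.5 to 15.8 CPM in macrophages alone. Fibroblast markers summed to 13.9 to 15.2 CPM with STC1OE corpses, 12.5 to 16.96 CPM with control corpses and 17.8 to 23.9 CPM in macrophages alone. Stc1 summed to 17 counts over the STC1OE group, 5 over the control corpse group and 5 over macrophages alone. In bulk RNA, fewer cells of a type and less RNA per cell cannot be told apart.

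Of the 31 genes, 30 had enough counts to be tested, and the lowest value of any of them in any library was 1.63 CPM, for Isg20. The exception was Ifnb1, the gene of interferon beta. It had 1 count in 1 of the 4 libraries with STC1OE corpses, 0 counts in every library with control corpses and 2 counts, in 2 libraries, in macrophages alone. A count of 0 over a group, as for Ifnb1 with control corpses, allows up to 0.0212 CPM there. For a gene at 0 counts the limit is 0.0229 CPM with STC1OE corpses and 0.0240 CPM in macrophages alone. These last limits are not ceilings for Ifnb1, which had counts in those groups. All are for counting error only and for RNA taken at this one time. The 14 interferon alpha genes together had 0 counts with STC1OE corpses, 5 counts with control corpses and 2 counts in macrophages alone, and 15 of the 19 other interferon genes searched had 0 counts in all 12 libraries. Ifnk, the gene of interferon kappa, was the one with the most, at 22 counts with STC1OE corpses, 27 counts with control corpses and 48 counts in macrophages alone.

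Macrophages given corpses had higher levels of most of these genes than macrophages alone. Among those called, the fold with control corpses ran from 1.09 for Irf9 to 2.43 for Rsad2. By edgeR's quasi-likelihood test with Benjamini-Hochberg adjustment over all 16406 genes tested, 25 of 30 rose and 0 fell with STC1OE corpses, where 21.4% of all genes rose and 22.4% fell (43.8% in either direction). With control corpses 27 of 30 rose and 0 fell, where 19.7% of all genes rose and 20.5% fell (40.1% in either direction). The median log2 fold change over the 30 genes was 0.49 with STC1OE corpses, beside -0.03 over all genes, and 0.64 with control corpses, beside -0.00 over all genes. The CPM ranges of the groups did not overlap, with corpses higher, for 24 of 30 genes with STC1OE corpses (19.7% of all genes) and for 26 of 30 with control corpses (18.3%). Both comparisons use the same 4 libraries of macrophages alone. DESeq2 called 27 of the genes higher with STC1OE corpses and 27 with control corpses. Over all genes it called 3502 of 17118 higher with STC1OE corpses and 2981 of 18223 with control corpses.

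**Figure D1:**
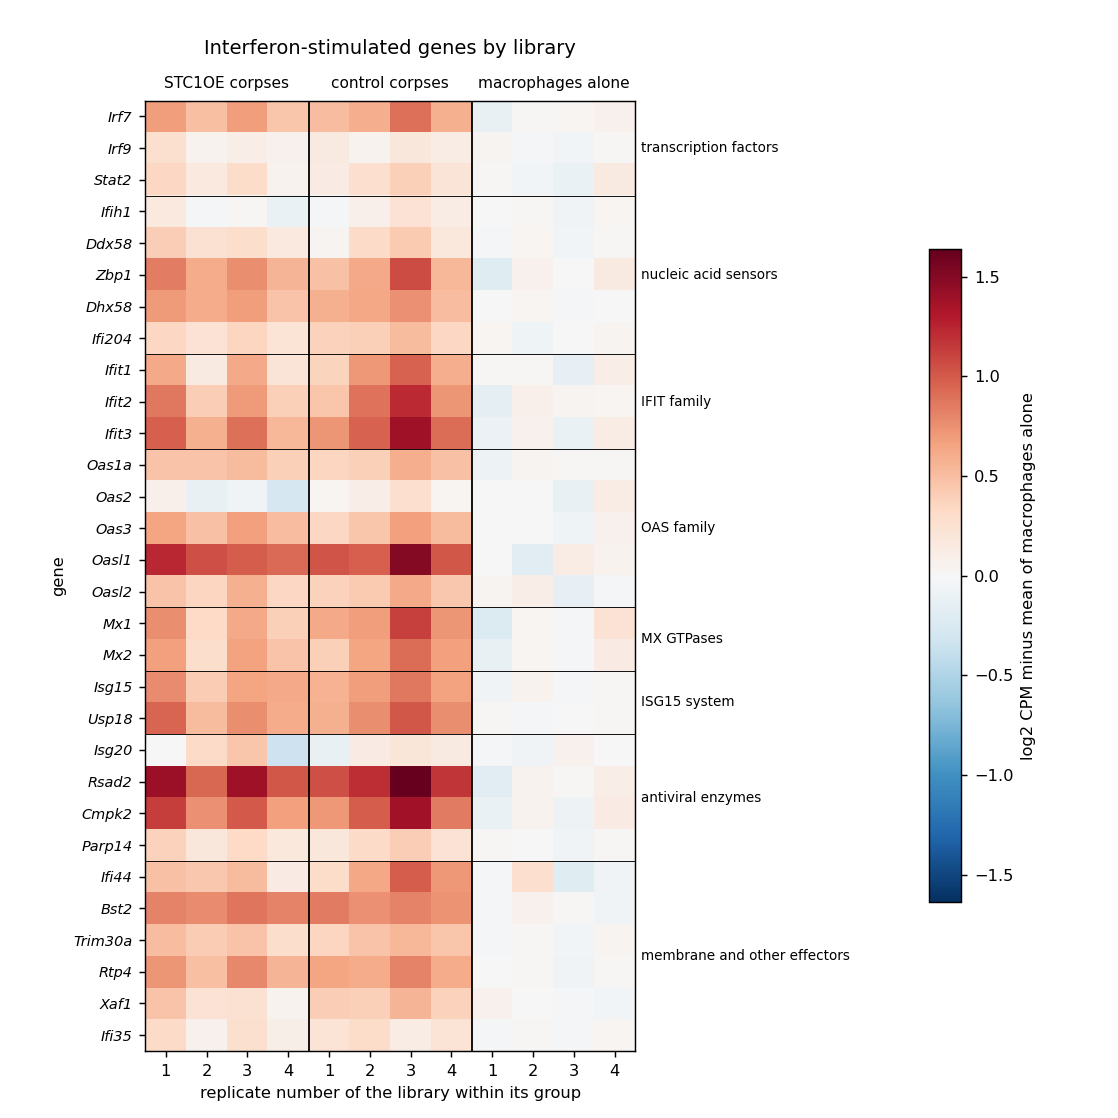
Level of the 30 tested genes in each of the 12 libraries, as log2 CPM minus the mean of the macrophages alone group; columns are libraries by group and replicate number, rows are genes ordered by role. Red marks higher and blue lower levels, and the darkest column is replicate 3 of the control corpse group.

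Of the 4 antiviral enzymes, 3 rose with both kinds of corpse. Rsad2 (ENSMUSG00000020641.16, chr12:26442746-26456452), viperin, makes a chain-terminating nucleotide that stops viral polymerases, and had the largest fold change of the 30 genes in both comparisons. It had 92.1, 67.1, 91.2 and 71.1 CPM with STC1OE corpses, 72.5, 81.0, 109 and 79.0 CPM with control corpses, and 31.01, 36.3, 35.4 and 37.7 CPM in macrophages alone. Every library with corpses lay above every library without. Its log2 fold change over macrophages alone was 1.19 (SE 0.162, adjusted p = 0.00018 by edgeR) with STC1OE corpses and 1.28 (SE 0.161, adjusted p = 0.00011 by edgeR) with control corpses. Cmpk2, a mitochondrial nucleotide kinase and the neighbour of Rsad2, had 62.4, 47.7, 57.2 and 45.2 CPM with STC1OE corpses, 46.6, 56.4, 74.0 and 51.4 CPM with control corpses, and 26.4, 29.5, 26.9 and 31.2 CPM in macrophages alone. Here too the corpse libraries lay above the others, with log2 fold changes of 0.90 with STC1OE corpses and 1.00 with control corpses. Parp14, a mono-ADP-ribosyltransferase, rose by 0.27 with STC1OE corpses and 0.29 with control corpses. Isg20, an exonuclease of single-stranded RNA, averaged 2.27 ± 0.529 CPM with STC1OE corpses, 2.20 ± 0.208 CPM with control corpses and 2.06 ± 0.0792 CPM in macrophages alone (SD, n = 4 each) and was not called in either comparison.

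**Figure D2:**
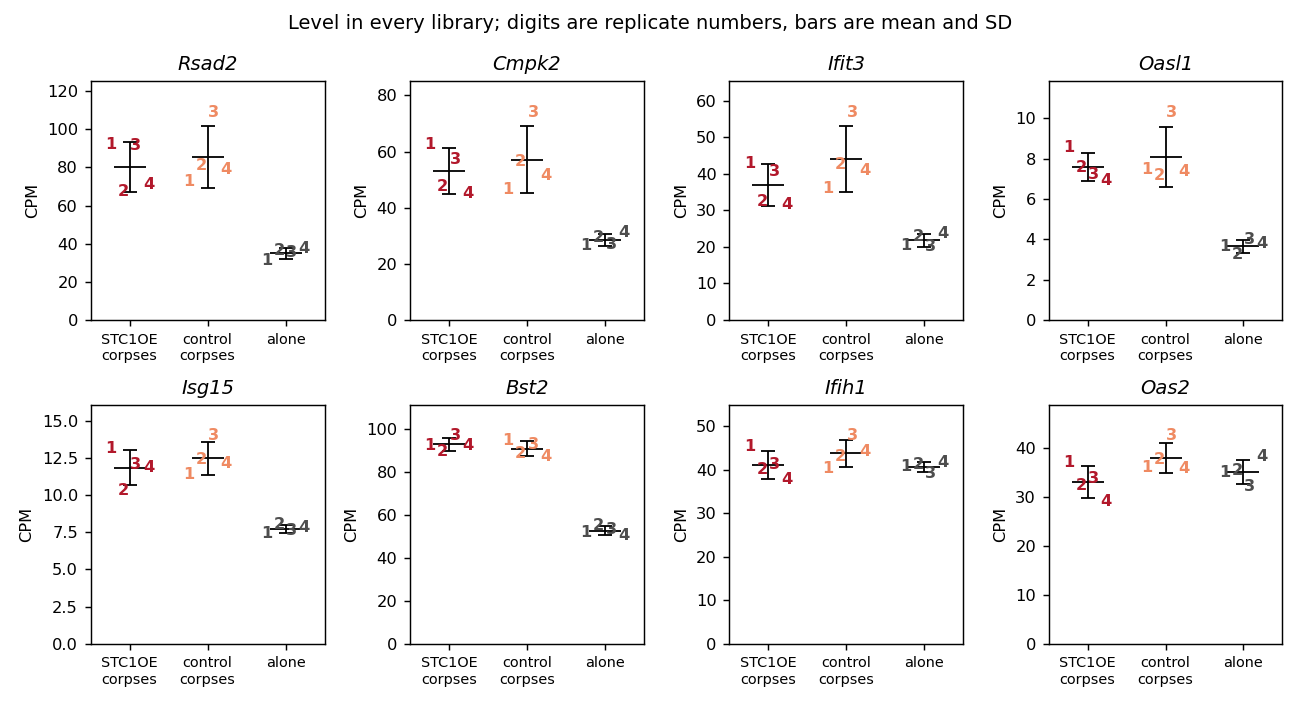
CPM of 8 of the genes in every library, on linear axes that start at 0. Digits are replicate numbers within each group and bars are the mean and SD of 4 libraries; the upper 4 genes and Isg15 and Bst2 show no overlap between corpse groups and macrophages alone, while Ifih1 and Oas2 overlap.

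All 3 IFIT genes, whose products bind viral RNA ends, rose with control corpses. Ifit3 (chr19:34583531-34588731) had 42.9, 32.5, 40.7 and 31.6 CPM with STC1OE corpses, 35.9, 42.6, 56.9 and 41.0 CPM with control corpses, and 20.4, 22.8, 20.2 and 23.7 CPM in macrophages alone. Its log2 fold changes were 0.76 with STC1OE corpses and 1.02 with control corpses. Ifit2 rose by 0.60 with STC1OE corpses and 0.84 with control corpses on the same scale. Ifit1 averaged 15.1 ± 2.61 CPM with STC1OE corpses, 18.1 ± 3.11 CPM with control corpses and 11.3 ± 0.779 CPM in macrophages alone (SD, n = 4 each). Its ranges were apart in both comparisons, but only the control corpse comparison passed the edgeR threshold (adjusted p = 0.0052, against 0.057 with STC1OE corpses). Ifit3 has a near-identical copy, Ifit3b, and reads placed at more than 1 position were set aside by the counting, so the split between the 2 is uncertain.

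Among the OAS genes, whose enzymes make the messenger that activates the nuclease RNase L, Oasl1, Oasl2, Oas1a and Oas3 rose with both kinds of corpse and Oas2 was not called with either. Oasl1, an OAS-like protein known in mouse to restrain translation of Irf7, had 8.55, 7.59, 7.22 and 6.94 CPM with STC1OE corpses, 7.46, 7.18, 10.3 and 7.37 CPM with control corpses, and 3.63, 3.23, 3.98 and 3.79 CPM in macrophages alone. The corpse groups were higher without overlap, with log2 fold changes of 1.05 with STC1OE corpses and 1.14 with control corpses. Oas3, the highest of the family in CPM, averaged 148.3 ± 9.95 CPM with STC1OE corpses, 141 ± 13.2 CPM with control corpses and 99.5 ± 4.22 CPM in macrophages alone. Oas2, on the same stretch of chromosome 5 as Oas3, had 37.1, 32.3, 33.9 and 29.1 CPM with STC1OE corpses, 36.0, 37.8, 42.5 and 35.9 CPM with control corpses, and 35.0, 35.4, 32.2 and 38.2 CPM in macrophages alone. The 3 groups of Oas2 overlapped, and its log2 fold changes over macrophages alone were -0.09 with STC1OE corpses (adjusted p = 0.41 by edgeR) and 0.11 with control corpses (adjusted p = 0.31).

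The MX genes, whose intact proteins are GTPases that block viruses, and the ISG15 system rose in both comparisons. Mx1 rose by 0.52 with STC1OE corpses and 0.78 with control corpses, and Mx2 by 0.52 with STC1OE corpses and 0.66 with control corpses, all as log2 fold changes. C57BL/6 mice are known to carry a defective Mx1 allele, and the annotation used lists Mx2 as a polymorphic pseudogene, so these counts are of transcripts and do not speak of a working protein. Isg15, a ubiquitin-like modifier, had 13.1, 10.3, 12.1 and 11.9 CPM with STC1OE corpses, 11.4, 12.4, 14.0 and 12.1 CPM with control corpses, and 7.39, 8.03, 7.602 and 7.80 CPM in macrophages alone. Usp18, the protease that removes Isg15 and also dampens the interferon receptor, averaged 10.7 ± 1.42 CPM with STC1OE corpses, 11.3 ± 1.44 CPM with control corpses and 6.53 ± 0.104 CPM in macrophages alone (SD, n = 4 each). Neither gene's ranges overlapped between corpses and macrophages alone.

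Of the 5 sensors, 4 rose with both kinds of corpse. Zbp1, which binds left-handed nucleic acid and can start necroptosis, rose by 0.69 with STC1OE corpses and 0.69 with control corpses on the log2 scale. Dhx58, the RNA-binding regulator LGP2, rose by 0.62 with STC1OE corpses and 0.62 with control corpses. Ifi204, a DNA-binding protein of the PYHIN family, rose by 0.29 with STC1OE corpses and 0.41 with control corpses. Ddx58, the RNA sensor RIG-I, rose by 0.28 with STC1OE corpses and 0.25 with control corpses. Ifih1, the long double-stranded RNA sensor MDA5, had 45.3, 39.98, 41.3 and 37.7 CPM with STC1OE corpses, 40.2, 43.0, 47.7 and 44.1 CPM with control corpses, and 40.6, 41.2, 39.1 and 41.6 CPM in macrophages alone. These ranges overlapped, and Ifih1 was not called with either kind of corpse (adjusted p by edgeR = 0.85 with STC1OE corpses and 0.12 with control corpses).

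Of the transcription factors, Irf7, the factor known for switching on the interferon alpha genes, had the largest change. It had 62.6, 55.1, 63.1 and 53.6 CPM with STC1OE corpses, 55.5, 58.9, 73.4 and 58.4 CPM with control corpses, and 35.8, 39.8, 40.1 and 41.0 CPM in macrophages alone. The corpse libraries were all higher, with log2 fold changes of 0.58 with STC1OE corpses and 0.65 with control corpses. Of the ISGF3 parts, Irf9 rose by 0.13 with STC1OE corpses and 0.13 with control corpses. Stat2 rose by 0.25 with control corpses (adjusted p = 0.033 by edgeR), while its value with STC1OE corpses was 0.21 (adjusted p = 0.064).

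Among the membrane and other effectors all 6 rose with both kinds of corpse. Bst2 (ENSMUSG00000046718.8, chr8:71534255-71537456), tetherin, which holds budding virus at the cell surface, had the smallest p of the 30 genes in both comparisons. It had 92.4, 89.5, 96.6 and 92.0 CPM with STC1OE corpses, 94.7, 88.3, 92.5 and 87.2 CPM with control corpses, and 51.7, 55.0, 52.9 and 50.2 CPM in macrophages alone. Its libraries kept close together within each group, and its log2 fold changes were 0.82 with STC1OE corpses (adjusted p = 1.3e-18) and 0.79 with control corpses (adjusted p = 4.2e-18) by edgeR. Rtp4, a chaperone of membrane receptors, rose by 0.65 with STC1OE corpses and 0.68 with control corpses. Trim30a, known in mouse to restrain NF-kappaB signalling, rose by 0.42 with STC1OE corpses and 0.46 with control corpses. Ifi44, Xaf1, which binds the apoptosis inhibitor XIAP, and Ifi35 rose by 0.40, 0.26 and 0.19 with STC1OE corpses and by 0.67, 0.44 and 0.22 with control corpses. For Ifi44 and Xaf1 the STC1OE range overlapped that of macrophages alone.

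Per kilobase of exon, the levels themselves spanned a wide range. Bst2 was highest, at a mean of 103 CPM per kb with STC1OE corpses, 100.4 CPM per kb with control corpses and 58.1 CPM per kb in macrophages alone. Oas1a had 33.1 CPM per kb with STC1OE corpses, 33.03 CPM per kb with control corpses and 24.1 CPM per kb in macrophages alone. Ifi204 had 32.2 CPM per kb with STC1OE corpses, 35.1 CPM per kb with control corpses and 26.4 CPM per kb in macrophages alone. Ifi44 was lowest of the tested genes, at 0.477 CPM per kb with STC1OE corpses, 0.578 CPM per kb with control corpses and 0.364 CPM per kb in macrophages alone. These levels use union exon lengths of GENCODE M21, and for Oas1a and Ifi204, which have close paralogs nearby, they rest on reads placed at 1 position.

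STC1OE and control corpses were also compared with each other. Stc1 itself had 17 counts over the STC1OE group and 5 over the control corpse group (p = 0.057 by an exact permutation test of CPM). Melanocyte markers other than Mitf differed too, at 3.31 to 4.73 CPM against 9.92 to 13.2 CPM. An effect of STC1 cannot be told apart from other differences between the 2 kinds of corpse. No gene of the 30 was called higher or lower by edgeR, where 3.33% of all genes were higher and 2.12% lower (5.44% in either direction). At an unadjusted p below 0.05 edgeR gave 0 higher and 4 lower (Ifi204, Xaf1, Oas2 and Ifi44), and 19.4% of all genes passed that mark in either direction. DESeq2 called 0 higher and 0 lower, where it called 768 higher and 265 lower of 11060 genes. The log2 fold changes ran from -0.27 for Ifi44 to 0.08 for Oas3, with a median of -0.07, beside -0.01 over all genes. They were negative for 25 genes and positive for 5. The smallest adjusted p was 0.058, for Ifi204, which had 119, 111, 120 and 110 CPM with STC1OE corpses and 122, 124, 135 and 119 CPM with control corpses. These ranges overlapped. For none of the 30 genes were the ranges of the 2 corpse groups apart, where 5.86% of all genes were apart and higher and 4.85% apart and lower.

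The intervals show how large a difference the data still allow. For Rsad2 the 95% interval of the STC1OE over control log2 fold change was -0.42 to 0.25, for Ifit3 -0.60 to 0.09 and for Ifit2 -0.62 to 0.13. For Bst2 it was -0.04 to 0.10 and for Oas1a -0.09 to 0.09, so the genes with closely spaced libraries were bounded more tightly. The sign of the median rested on 1 library. Without replicate 3 of the control corpses the median was 0.02, with 13 genes negative and 17 positive, and again 0 called. In that fit 326 of all 16630 genes tested were higher and 203 lower. Without replicate 1 of the STC1OE corpses the median was -0.12, and 3 genes were called lower (Oas2, Ifi204 and Xaf1). In that fit 727 of all 16723 genes tested were higher and 473 lower.

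**Figure D3:**
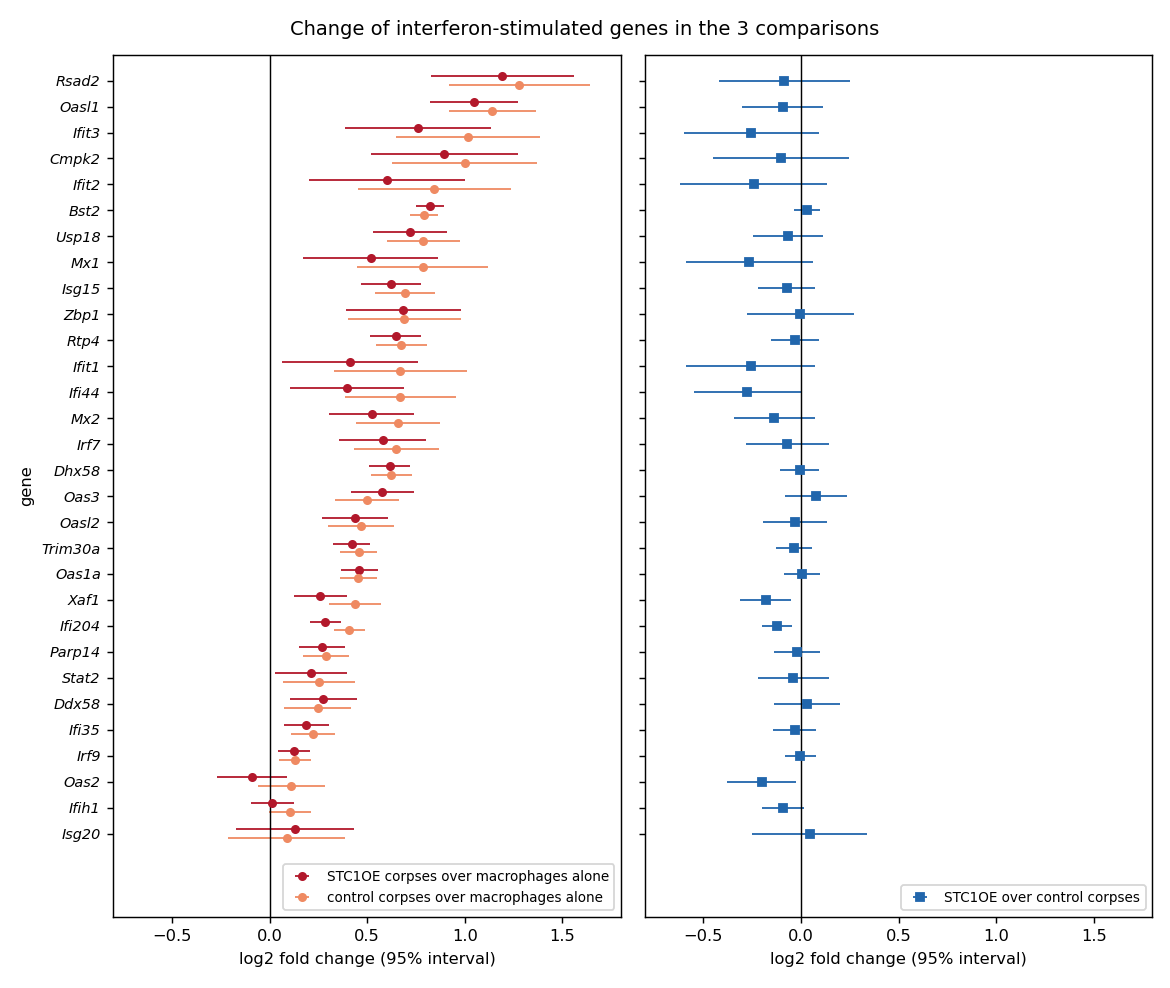
Log2 fold changes of the 30 tested genes with 95% intervals, ordered by the change with control corpses. Left, STC1OE corpses and control corpses each over macrophages alone; right, STC1OE over control corpses, where the estimates lie between -0.27 and 0.08.

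The genes varied together from library to library within both corpse groups, and less so in macrophages alone. Within the STC1OE group, replicate 1 was the highest library for 21 genes and replicate 3 for the other 9, and replicate 4 was the lowest for 19 and replicate 2 for the other 11. Replicates 1 and 3 both lay above replicates 2 and 4 for 27 of 30 genes, where this order held for 15.2% of all genes tested. The exceptions were Isg20, Oas1a and Oasl1. Within the control corpse group, replicate 3 was the highest library for 28 of 30 genes, where this held for 23.0% of all genes, and replicate 1 the lowest for 21. The exceptions were Bst2 and Ifi35. Both orders held for 25 of the 30 genes and for 4.19% of all genes. In macrophages alone, replicates 2 and 4 both lay above replicates 1 and 3 for 16 of 30 genes, against 15.6% of all genes. Replicate 4 was the highest library there for 16 genes, against 25.8% of all genes. These orders were noticed in the same values and are given as a description.

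As log2 CPM minus the group mean, the median over the 30 genes was 0.13, -0.08, 0.07 and -0.12 in replicates 1 to 4 with STC1OE corpses and -0.12, -0.02, 0.17 and -0.06 in those with control corpses. In macrophages alone it was -0.01, 0.03, -0.04 and 0.04, a narrower range. The median over all genes tested was at most 0.00521 from the group mean in each of the 12 libraries. The median SD of the 30 genes on the log2 scale was 0.129 in the STC1OE group, 0.129 in the control corpse group and 0.0587 in macrophages alone. Genes within the same range of mean level had median SDs of 0.0667 in the STC1OE group, 0.0629 in the control corpse group and 0.0623 in macrophages alone. The median SD of the 30 genes was thus near that of other genes of their level in macrophages alone and above it in both corpse groups. The most spread in the control corpse group was Ifit2 (SD 0.320), and the least was Irf9 (SD 0.0516).

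**Figure D4:**
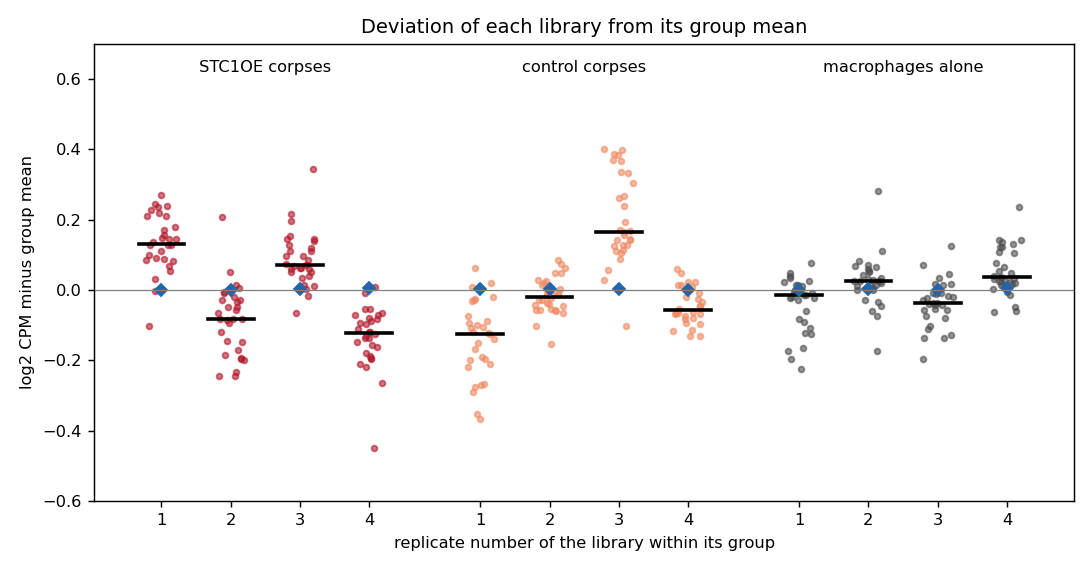
Deviation of each library from its group mean for the 30 tested genes, in log2 CPM. Dots are genes, black bars their median and blue diamonds the median over all genes tested; the bars run from -0.12 to 0.17 in the corpse groups and from -0.04 to 0.04 in macrophages alone.

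Other values of those libraries stand beside this. Replicate 3 of the control corpses had 35525365 assigned counts, within the range of its group, and its melanocyte marker sum of 9.92 CPM was the lowest of the 4, against 12.4, 13.2 and 11.4 CPM in replicates 1, 2 and 4. Its plasmacytoid dendritic cell marker sum of 1.54 CPM was also the lowest of its group. In the STC1OE group the melanocyte marker sums were 4.32, 4.73, 3.31 and 3.90 CPM in replicates 1 to 4. Whether RNA of corpses or of other cells had a part in the order of the libraries was not tested. The labels name no batch. Calls against macrophages alone did not rest on 1 library for most genes. With any 1 library left out, 21 of the 25 genes that rose with STC1OE corpses and 25 of the 27 that rose with control corpses stayed called. Irf9, Ifit2, Mx1 and Ifi44 lost the call with STC1OE corpses, and Stat2 and Ddx58 with control corpses, each in at least 1 such fit. Without replicate 3 of the control corpses 26 of 30 rose with control corpses, with a median log2 fold change of 0.56. In that fit 3161 of all 16630 genes rose.

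Other genes of the pathway were followed in lists grouped by role, which were chosen with earlier results of these data known. Among 11 genes of the receptors and JAK-STAT pathway, 2 rose and 5 fell with STC1OE corpses, where 21.4% of all genes rose and 22.4% fell. With control corpses 2 rose and 7 fell, where 19.7% of all genes rose and 20.5% fell. The share that rose was near that of all genes in both. Socs1, a feedback inhibitor of the kinases and itself a known interferon target, rose by 0.61 with STC1OE corpses and 0.69 with control corpses as log2 fold changes. The receptor chain Ifnar1 averaged 231 CPM with STC1OE corpses, 223 CPM with control corpses and 238 CPM in macrophages alone. It fell by 0.10 on the log2 scale with control corpses (adjusted p = 0.0020 by edgeR) and was not called with STC1OE corpses (-0.04). Ifnar2 was not called in either comparison. Ifngr1, a chain of the interferon gamma receptor, fell by 0.56 with STC1OE corpses and 0.57 with control corpses. Ptpn6, the phosphatase SHP-1 that dampens cytokine receptors, fell by 0.16 with STC1OE corpses and 0.26 with control corpses. Stat3, a transcription factor of other cytokines, fell by 0.16 with STC1OE corpses and 0.21 with control corpses.

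A list for sensing upstream of interferon held sensors but also adaptors, kinases, transcription factors and nucleases. Of its 24 tested genes, 10 rose and 8 fell with STC1OE corpses (of all genes 21.4% rose and 22.4% fell). With control corpses 10 rose and 9 fell (of all genes 19.7% rose and 20.5% fell). Ikbke, a kinase that activates Irf3 and Irf7, rose by 0.67 with STC1OE corpses and 0.68 with control corpses on the log2 scale. Tlr3, a receptor of double-stranded RNA, rose by 0.37 with STC1OE corpses and 0.31 with control corpses. Mavs, the adaptor of RIG-I and MDA5, rose by 0.33 with STC1OE corpses and 0.29 with control corpses. Samhd1, which breaks down nucleotides, fell by 0.25 with STC1OE corpses and 0.24 with control corpses. Tlr9, a receptor of DNA, fell by 0.89 with STC1OE corpses and 0.79 with control corpses. Tmem173, the adaptor STING, fell by 0.37 with STC1OE corpses and fell by 0.38 with control corpses, and Irf3 was not called in either. Of this list of 24, 1 gene was higher and 1 lower with STC1OE than with control corpses. Of all genes 3.33% were higher and 2.12% lower, so these counts are near the shares of all genes. Cgas, the cytosolic DNA sensor, had 16.4, 17.5, 18.2 and 16.96 CPM with STC1OE corpses, 20.0, 18.8, 21.8 and 20.8 CPM with control corpses, and 14.8, 15.3, 14.1 and 14.9 CPM in macrophages alone. Over macrophages alone it rose by 0.22 with STC1OE corpses and 0.46 with control corpses on the log2 scale. The 2 corpse groups did not overlap, and the log2 fold change of STC1OE over control corpses was -0.24 (SE 0.0517, adjusted p = 0.0050 by edgeR). Ticam1, the TLR3 adaptor TRIF, averaged 45.7 CPM with STC1OE corpses and 41.2 CPM with control corpses, a log2 fold change of 0.15 (adjusted p = 0.031 by edgeR), and lost that call in 4 of the 12 fits that left out 1 library.

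A further list held 48 tested interferon-stimulated genes. Of these, 21 rose and 5 fell with STC1OE corpses (of all genes 21.4% rose and 22.4% fell), and 24 rose and 4 fell with control corpses (of all genes 19.7% rose and 20.5% fell). The galectin-binding protein Lgals3bp, at 501 CPM with STC1OE corpses and 321 CPM in macrophages alone, and Ifi205, at 3.03 CPM with STC1OE corpses, 3.61 CPM with control corpses and 1.97 CPM in macrophages alone, were among those that rose. Phf11b rose by 0.58 with STC1OE corpses and 0.75 with control corpses on the log2 scale, and Ifit3b, the near copy of Ifit3, by 0.57 with STC1OE corpses and 0.86 with control corpses. Samd9l fell by 0.20 with STC1OE corpses and 0.14 with control corpses, and Epsti1 fell by 0.19 with STC1OE corpses and 0.23 with control corpses. Uba7, the enzyme that activates Isg15 for conjugation, fell by 0.18 with STC1OE corpses and 0.10 with control corpses. Ifi27l2a fell by 0.24 with STC1OE corpses and was not called with control corpses (-0.11). Between the corpses 0 of the 48 were higher and 1 lower, near the shares of all genes (3.33% higher and 2.12% lower). Slfn9, a Schlafen gene, was the one lower with STC1OE than with control corpses. It had 24.8, 22.8, 25.0 and 23.1 CPM with STC1OE corpses and 32.9, 29.3, 31.4 and 30.4 CPM with control corpses, a log2 fold change of -0.38 (adjusted p = 1.6e-05 by edgeR). In macrophages alone it had 26.8, 26.9, 23.0 and 25.7 CPM.

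Of 16 tested genes linked to interferon gamma and Irf1, 4 rose and 4 fell with STC1OE corpses (of all genes 21.4% rose and 22.4% fell), and 6 rose and 3 fell with control corpses (of all genes 19.7% rose and 20.5% fell). The counts with STC1OE corpses are near the shares of all genes. Ciita, the master regulator of MHC class II, had 1.45, 1.98, 1.29 and 1.54 CPM with STC1OE corpses, 1.37, 1.62, 1.93 and 2.04 CPM with control corpses, and 6.15, 6.60, 7.69 and 7.86 CPM in macrophages alone. It fell without overlap, with log2 fold changes of -2.18 with STC1OE corpses and -2.03 with control corpses. Irf1 fell by 0.41 with STC1OE corpses and 0.43 with control corpses, and Gbp7 fell by 0.65 with STC1OE corpses and 0.59 with control corpses. Tap1, a part of the peptide transporter of MHC class I, rose by 0.26 with STC1OE corpses and 0.24 with control corpses. Irgm1, an immunity-related GTPase, rose by 0.29 with STC1OE corpses and 0.27 with control corpses. Cd274, which encodes PD-L1, rose by 0.38 with STC1OE corpses and 0.24 with control corpses.

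The order of libraries seen in the 30 genes also appeared in some of these lists. Replicates 1 and 3 of the STC1OE group lay above 2 and 4 for 35 of the 48 further interferon-stimulated genes and 10 of the 16 interferon gamma-linked genes, but for 3 of the 24 sensing genes and 2 of the 11 receptor and JAK-STAT genes. Replicate 3 of the control corpses was the highest library for 35, 11, 8 and 3 genes of the same lists. The shares for all genes were 15.2% and 23.0%, as above.

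**Figure D5:**
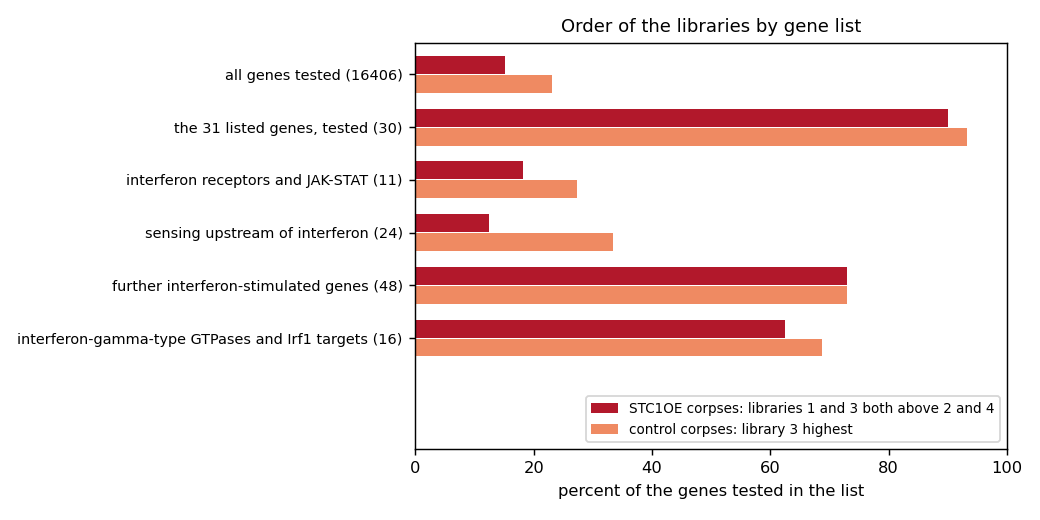
Percent of the tested genes of each list whose libraries show the orders described, with the number tested in brackets. Red bars, STC1OE replicates 1 and 3 both above 2 and 4; orange bars, control corpse replicate 3 highest; both are longest for the listed interferon-stimulated genes, at 90.0% and 93.3%.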

How the data were processed

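RNA from 12 macrophage cultures, 4 per group, was sequenced from TruSeq mRNA libraries as paired reads. Each library had 1 file of gene-level read counts, deposited by the authors without normalization. The submitters' processing notes name HISAT2, HTSeq and DESeq2, with no versions, and the builds mm10 and GRCm38. The sources used here do not give the strand setting of the counting, so a gene and an antisense partner cannot be told apart. Rows that name no gene were left out of all totals: 10.6% to 14.7% of records per library matched no feature and 5.74% to 7.03% were placed at more than 1 position. Depth was 28488441 to 39981074 assigned counts per library, at which 0 counts in 1 library allow 0.0750 to 0.105 CPM (3 counts), for counting error only.

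Versioned gene IDs were matched to symbols and positions of GENCODE M21 (GRCm38), and 54723 of 55604 matched. Groups and replicate numbers came from the sample titles. Genes passed edgeR's filterByExpr (minimum count 10, minimum total 15), which kept 16406. TMM factors were applied and CPM are per TMM-scaled library. The test was edgeR's quasi-likelihood F test (edgeR 4.0.16, R 4.3.3), two-sided, with 1 mean per group over all 12 libraries, Benjamini-Hochberg adjustment over all tested genes and a threshold of 0.05; it was first tested on simulated counts. Alternatives were other scalings, filters and subsets of libraries, a replicate block, a test against 1.2-fold and DESeq2 1.42.0. All 31 listed genes are named, and from each companion list up to 3 genes per direction with the largest called change in a comparison and at least 2 CPM. Ifnar1, Ifnar2, Irf3, the interferon genes and Stc1 are named whatever their values. The gene lists and tests were chosen with earlier results of these data known. One gene of the receptor and JAK-STAT list is not reported here.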

Additional observations from a re-analysis of the deposited data

Results flagged for a closer look

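Of 90 groups of 4 values, 1 for each of the 30 tested genes in each group of libraries, 2 held a value far from the other 3 by Dixon's test at the 95% level, and chance flags about 1 in 20. Both values are of replicate 3 of the control corpse group. Oasl1 had 10.3 CPM there, against 7.18 to 7.46 CPM in the other 3 libraries of the group. Xaf1 had 20.5 CPM there, against 18.1 to 18.5 CPM in the other 3.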

How the results depend on the processing

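Signs were followed for the listed genes and for the companion genes picked for the largest called changes, not for the other companion genes. With every alternative tried, no called gene among those followed changed sign. Between STC1OE and control corpses 20 of the 30 listed genes, none of them called, changed sign under at least 1 alternative. Genes lower with STC1OE than with control corpses numbered 0 of 30, but 2 with scaling by total counts, 3 without a filter on low counts, 1 with a filter of 1 CPM in 4 libraries, 3 from replicates 3 and 4 alone, and 0 to 3 with 1 library left out. Over the companion lists 1 gene was higher in that comparison (3 with RLE factors, 0 with total counts, 3 without a filter, 0 against 1.2-fold, 0 from replicates 1 and 2 alone, 5 from replicates 3 and 4 alone, 4 by DESeq2, 0 to 3 with 1 library left out) and 2 were lower (7 with total counts, 4 without a filter, 0 against 1.2-fold, 1 from replicates 1 and 2 alone, 11 from replicates 3 and 4 alone, 2 to 3 with 1 library left out). Against macrophages alone, listed genes that rose with STC1OE corpses numbered 25 (3510 of 16406 over all genes). They numbered 16 against 1.2-fold (903 of 16406) and 12 from replicates 3 and 4 alone (3288 of 16576). With control corpses 27 rose (3226 of 16406 over all genes), and 17 from replicates 3 and 4 alone (2842 of 16576). Companion genes that rose and fell numbered 37 and 22 with STC1OE corpses, 9 and 7 against 1.2-fold, with 35 falling under total counts and 14 from replicates 1 and 2 alone. With control corpses they numbered 42 and 23, 15 and 6 against 1.2-fold, with 13 falling from replicates 1 and 2 alone. Of all 16406 genes, 903 rose and 1216 fell against 1.2-fold with STC1OE corpses, and 736 and 951 with control corpses. From replicates 1 and 2 alone, 2395 of all 16508 genes fell with STC1OE corpses and 2093 with control corpses. Fits on 2 replicates use fewer samples and the 1.2-fold test asks for more. Over all genes, STC1OE against control corpses gave 27 higher and 6 lower from replicates 1 and 2 alone. Against 1.2-fold it gave 2 and 2, with RLE factors 681 and 317, and without a filter 638 and 451. By DESeq2 it gave 768 and 265 of 11060. From replicates 3 and 4 alone it gave 1298 and 627, more than the 546 and 347 from all libraries. In the STC1OE group 14.6%, 14.4%, 17.8% and 17.5% of records in replicates 1 to 4 were not aligned. This share was 10.8% to 11.5% with control corpses and 11.4% to 14.0% in macrophages alone. Causes of these differences were not tested. From replicates 1 and 2 alone the median log2 fold change of STC1OE over control corpses was 0.04, and from replicates 3 and 4 alone -0.16. Scaling by total counts gave 185 genes higher and 913 lower of all genes between STC1OE and control corpses, against 546 and 347 with TMM. It gave 2385 higher and 5112 lower between STC1OE corpses and macrophages alone, against 3510 and 3676 with TMM.

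For same-numbered libraries of different groups, 0 of 12 pairs had a correlation of their deviations over 0.1 (-0.04 to 0.09). Pairs with different numbers ran from -0.09 to 0.096, so that mark does not separate the 2 kinds of pair. In 4 of 12 comparisons of 1 library with the 4 of another group the same number correlated best. Whether the numbers mark shared experiments cannot be told from these values. With a replicate block 1 listed gene was lower with STC1OE than with control corpses and 2 companion genes were higher. Of all 16406 genes, 677 were then higher and 412 lower in that comparison, against 546 and 347 without the block. Over macrophages alone, 25 and 25 listed genes rose with STC1OE and control corpses in that fit, and 3548 and 3289 of all genes. Depth limits Ifnb1 and the interferon alpha genes, whose counts are too few for a difference to be detectable.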
